A study of Mus musculus with 8 samples.

Results

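The genes of the mouse mitochondrial ribosomal proteins were taken as all genes whose symbol is Mrpl or Mrps followed by a number and at most 1 letter. The symbols came from the platform annotation of the probes, updated through Entrez identifiers, because the scanner files carry probe names and accessions but no gene name column. This gave 78 of the 19516 genes on the array, 49 named Mrpl and 29 named Mrps, measured by 129 probes. The probe with the highest mean log2 signal over the 8 samples stood for each gene, and 43 of the 78 genes had a single probe. All 78 members were well above background in all 8 samples and none was saturated, against 64.4% of all genes on the array well above background in all 8.

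The samples were RNA of epididymal tissue, called fat pad in the source label, from CFT Swiss albino mice aged 5 weeks, given intraperitoneal injections for 8 days. The groups were obestatin, its N-terminal peptide, the analog of that peptide called Nt8U, and saline, with 2 samples in each. The design text gives a dose of 80 ng/kg and 6 mice in a group, whereas the growth protocol gives 80 nmol/kg and 3 mice, and the labels do not state whether 2 samples of 1 group are 2 animals, so the spread behind each p-value may be technical. Each of the 4 2-colour arrays carried both samples of 1 group, replicate 1 in Cy3 and replicate 2 in Cy5, so the array and the group cannot be told apart, nor can the dye and the sample within an array.

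The mitochondrial ribosome is built in the mitochondrial matrix from RNA encoded by mitochondrial DNA and from proteins encoded in the nucleus, made in the cytosol and imported. It translates the few messenger RNAs of mitochondrial DNA, whose products are core subunits of the respiratory chain and ATP synthase. Some of its proteins have a homologue in bacterial ribosomes and others are specific to mitochondria. Every cell with mitochondria uses these genes, adipocytes and cells of the testis and epididymis included.

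By known place, 30 members were large subunit proteins with a bacterial homologue, 21 were large subunit proteins specific to mitochondria, 16 were small subunit proteins with a bacterial homologue and 10 were small subunit proteins specific to mitochondria. Mrps30 and Mrps18a, despite their names, belong to the large subunit and were counted there. Mrps36 is the remaining member, a protein of the 2-oxoglutarate dehydrogenase complex that kept a ribosomal name.

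RefSeq promoters on GRCm38.p6, each from 250 bases before to 50 bases after the gene's start, were matched for 69 of the 78 members. Mrpl47, Mrpl1, Mrpl39, Mrps22 and Mrpl35 are shown because they had the widest spread over samples among the members that were high in the Cy5 samples of 3 arrays, and Mrpl14 and Mrpl23 because they had the widest spread among those that were low there. Capitals mark a match, on either strand, to 1 of 4 searched motifs, named after the factors that bind them. The motif of NRF1 was CGCANGCGC. The motif of the YY1 factor was AAGATGGC. For ETS factors the core CCGGAAG was searched. The TATA box was searched as TATAAA. Matches of different motifs overlapped in 0 of the 69 member promoters. Among the shown promoters the match is to NRF1 in Mrpl39 and Mrpl14, to ETS in Mrps22 and to YY1 in Mrpl35.
Mrpl47, chr3:32736706-32737005, minus strand: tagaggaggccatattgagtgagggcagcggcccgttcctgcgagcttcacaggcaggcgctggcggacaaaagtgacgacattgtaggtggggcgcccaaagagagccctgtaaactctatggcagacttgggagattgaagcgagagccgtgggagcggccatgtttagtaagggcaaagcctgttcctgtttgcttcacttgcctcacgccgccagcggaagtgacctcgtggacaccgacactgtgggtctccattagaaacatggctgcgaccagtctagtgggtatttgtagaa
Mrpl1, chr5:96209865-96210164, plus strand: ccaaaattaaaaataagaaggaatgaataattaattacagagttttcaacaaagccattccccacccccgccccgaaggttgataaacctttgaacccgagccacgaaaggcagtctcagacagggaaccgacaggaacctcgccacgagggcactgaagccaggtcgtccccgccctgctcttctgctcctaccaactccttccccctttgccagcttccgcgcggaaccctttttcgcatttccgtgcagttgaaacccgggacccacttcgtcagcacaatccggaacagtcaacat
Mrpl39, chr16:84735195-84735494, minus strand: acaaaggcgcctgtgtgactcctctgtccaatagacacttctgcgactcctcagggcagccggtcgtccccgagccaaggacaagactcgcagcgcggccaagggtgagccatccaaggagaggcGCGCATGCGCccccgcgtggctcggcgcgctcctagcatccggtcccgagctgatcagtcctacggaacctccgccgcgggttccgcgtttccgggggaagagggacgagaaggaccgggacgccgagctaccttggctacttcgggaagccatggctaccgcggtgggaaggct
Mrps22, chr9:98601630-98601929, minus strand: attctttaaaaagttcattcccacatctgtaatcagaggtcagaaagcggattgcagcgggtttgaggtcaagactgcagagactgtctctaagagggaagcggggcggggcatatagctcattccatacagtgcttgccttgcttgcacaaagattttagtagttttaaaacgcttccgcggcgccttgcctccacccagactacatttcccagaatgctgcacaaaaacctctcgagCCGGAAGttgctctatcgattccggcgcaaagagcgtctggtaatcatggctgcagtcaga
Mrpl35, chr6:71823735-71824034, minus strand: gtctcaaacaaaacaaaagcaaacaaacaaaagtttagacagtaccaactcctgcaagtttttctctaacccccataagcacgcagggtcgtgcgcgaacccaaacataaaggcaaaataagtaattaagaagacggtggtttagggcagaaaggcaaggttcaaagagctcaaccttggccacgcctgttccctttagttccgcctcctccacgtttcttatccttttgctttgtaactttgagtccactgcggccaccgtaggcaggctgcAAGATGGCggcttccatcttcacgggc
Mrpl14, chr17:45686099-45686398, plus strand: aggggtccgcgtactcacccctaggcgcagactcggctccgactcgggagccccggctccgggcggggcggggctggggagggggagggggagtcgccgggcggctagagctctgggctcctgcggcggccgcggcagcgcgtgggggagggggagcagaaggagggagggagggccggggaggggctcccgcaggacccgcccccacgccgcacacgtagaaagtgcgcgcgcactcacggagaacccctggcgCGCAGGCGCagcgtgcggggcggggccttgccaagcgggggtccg
Mrpl23, chr7:142532782-142533081, plus strand: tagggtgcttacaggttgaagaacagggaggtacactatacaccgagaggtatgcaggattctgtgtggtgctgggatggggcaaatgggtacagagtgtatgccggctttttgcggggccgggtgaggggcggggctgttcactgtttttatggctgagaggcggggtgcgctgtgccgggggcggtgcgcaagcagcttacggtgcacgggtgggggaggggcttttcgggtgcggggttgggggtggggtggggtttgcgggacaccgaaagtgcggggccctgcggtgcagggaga

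The ETS motif was found in 25 of the 69 member promoters (36.2%), against 9.12% of the 27025 RefSeq promoters. The NRF1 motif was found in 18 (26.1%, against 6.59%) and the YY1 motif in 12 (17.4%, against 2.88%), while the TATA box was found in 4 (5.8%, against 14.2%). The NRF1 motif was shortened after a first search, whose form had 1 more G at the 5′ end and was found in 13 (18.8%, against 4.78%). At least 1 of the first 3 motifs was present in 43 of the 69, a count not made over all promoters. The 27025 promoters were not limited to genes above background in these samples, whereas the members all were above it. Among the 10 members with a promoter that were high in the Cy5 samples of 3 arrays, 4 held the ETS motif and 3 the NRF1 motif, and among the 5 that were low on at least 2 of those arrays, 2 held the ETS motif and 1 the NRF1 motif. A match describes the letters of the window and is no evidence of binding.

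The first question was how the members varied over the 8 samples, given as normalized log2 signals with the Cy5 sample of each group before its Cy3 sample. The range over the 8 samples had a median of 1.26 log2 units over the members, against 1.96 over the 15414 genes tested. It exceeded 2 log2 units in 15 members (19.2%), against 48.9% of all genes tested. The 4 widest ranges were those of Mrpl47 (4.11), Mrpl1 (3.00), Mrpl14 (2.87) and Mrpl39 (2.80). The 4 narrowest were those of Mrps27 (0.33), Mrpl19 (0.34), Mrpl30 (0.40) and Mrpl49 (0.47), though Mrpl49 varied more by its other probes, given below.

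Mrpl47, a large subunit protein homologous to bacterial L29, had log2 signals of 9.10 and 9.58 in the obestatin samples, 12.70 and 9.24 in the N-terminal peptide samples, 11.39 and 8.59 in the Nt8U samples, and 12.66 and 9.35 in the saline samples. The Cy5 samples of the N-terminal peptide, Nt8U and saline stood above the other 5, which lay within 1 log2 unit of each other. Mrpl1, the protein of the L1 stalk, past which spent transfer RNA leaves, had 10.46 and 10.40 with obestatin, 12.83 and 10.37 with the N-terminal peptide, 11.77 and 9.97 with Nt8U, and 12.49 and 9.83 with saline. Mrpl39, a protein specific to the mitochondrial large subunit, had 10.80 and 11.14 with obestatin, 13.53 and 10.73 with the N-terminal peptide, 12.58 and 11.17 with Nt8U, and 13.47 and 10.88 with saline. In both genes the same 3 Cy5 samples were the high ones, so the 2 samples of those groups differed by more than any 2 of the 4 Cy3 samples did.

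Mrpl14, at the interface between the subunits, ran the other way, with 13.41 and 13.25 in the obestatin samples, 10.95 and 13.82 in the N-terminal peptide samples, 12.93 and 13.20 in the Nt8U samples, and 11.54 and 13.40 in the saline samples. Mrpl23, which sits at the exit of the peptide tunnel, had 12.27 and 12.40 with obestatin, 10.25 and 12.41 with the N-terminal peptide, 11.80 and 12.39 with Nt8U, and 10.98 and 12.58 with saline. The Cy5 samples of the N-terminal peptide and saline were the low ones in both genes. Mrps27, a small subunit protein specific to mitochondria, had 7.42 and 7.67 with obestatin, 7.68 and 7.64 with the N-terminal peptide, 7.62 and 7.75 with Nt8U, and 7.43 and 7.73 with saline. No sample of Mrps27 stood apart.

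**Figure D1:**
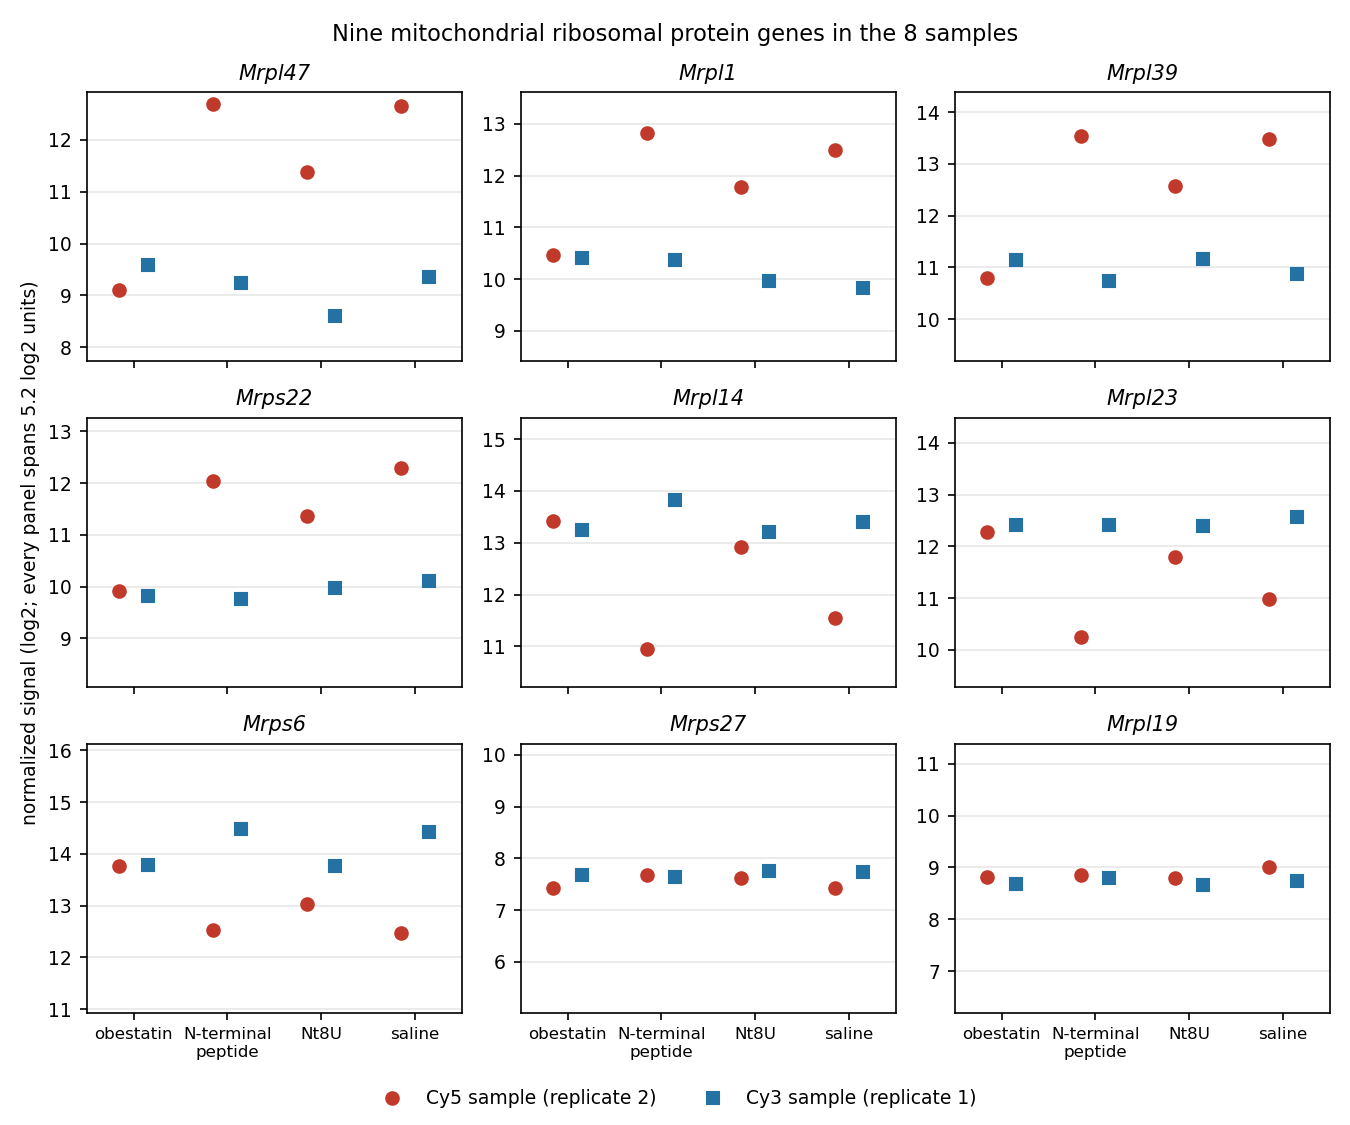
Normalized log2 signal (vertical axis, the same span in every panel) of 9 members in the 8 samples, by group along the horizontal axis, with circles for the Cy5 sample and squares for the Cy3 sample of a group. Mrpl47, Mrpl1, Mrpl39 and Mrps22 were high, and Mrpl14, Mrpl23 and Mrps6 low, in Cy5 samples of the N-terminal peptide and saline, while Mrps27 and Mrpl19 had ranges of 0.33 and 0.34.

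Within arrays, the Cy5 sample was set against the Cy3 sample of the same group, as a description of 2 samples with no test. On the obestatin array all 78 members lay within 2-fold, with differences between -0.53 and 0.39 log2 units, while 1.46% of all genes tested were over 2-fold higher and 7.31% over 2-fold lower in the Cy5 sample. On the N-terminal peptide array 23 members (29.5%) were over 2-fold higher in the Cy5 sample, against 30.3% of all genes tested, and 14 (17.9%) were over 2-fold lower, against 26.7%. On the Nt8U array 12 (15.4%) were over 2-fold higher, against 27.3% of all genes tested, and none was over 2-fold lower, against 9.1%. On the saline array 21 (26.9%) were over 2-fold higher, against 29.8%, and 6 (7.69%) over 2-fold lower, against 21.6%. With this scaling the members' shares were near or below those of all genes tested on each array. Without loess the share of members over 2-fold higher was above that of all genes, at 76.9% against 44.7% on the obestatin array, 65.4% against 46.8% on the N-terminal peptide array, 84.6% against 65.2% on the Nt8U array and 44.9% against 34.7% on the saline array.

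Across the 78 members the SD of the Cy5 minus Cy3 difference was 0.21 log2 units on the obestatin array, 1.25 on the N-terminal peptide array, 0.66 on the Nt8U array and 1.08 on the saline array. Pearson's r over the 78 members between the 2 samples of a group was 0.990 for obestatin, 0.681 for the N-terminal peptide, 0.891 for Nt8U and 0.752 for saline. Each r is taken over genes, which are not independent, and the 2 samples share an array. Between arrays, the Cy5 samples of the N-terminal peptide and saline had r = 0.979 and their Cy3 samples r = 0.985, both closer than the 2 samples of either group were.

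**Figure D2:**
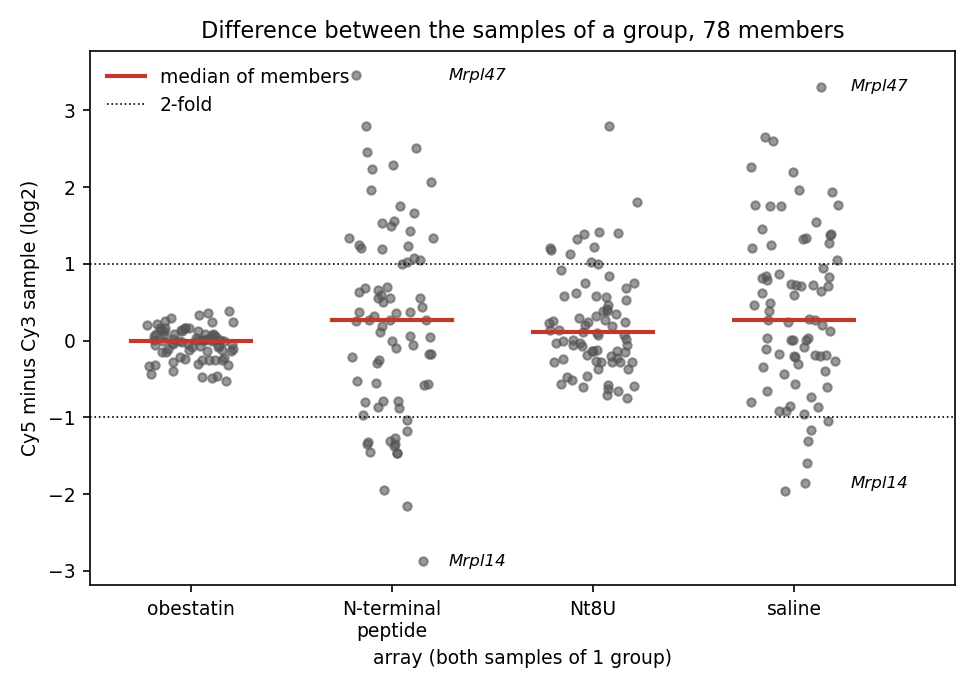
Cy5 minus Cy3 difference (log2, vertical axis) of the 78 members on each array (horizontal axis), 1 point a member, with the members' median as a bar and dotted lines at 2-fold. The obestatin points lie between -0.53 and 0.39, the N-terminal peptide points between -2.87 at Mrpl14 and 3.46 at Mrpl47, and the saline points between -1.95 at Mrps6 and 3.31 at Mrpl47.

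On the N-terminal peptide, Nt8U and saline arrays, 11 members (14.1%) were over 2-fold higher in the Cy5 sample on all 3, against 21.2% of all genes tested. They were Mrpl1, Mrpl22, Mrpl35, Mrpl39, Mrpl47, Mrpl51, Mrpl54, Mrpl57, Mrps22, Mrps31 and Mrps36. Mrpl22 lines the peptide tunnel, Mrpl35 has a bacterial homologue, and Mrpl51, Mrpl54 and Mrpl57 of the large subunit and Mrps22 and Mrps31 of the small subunit are specific to mitochondria. Another 6 members, Mrpl14, Mrpl23, Mrpl27, Mrpl58, Mrps35 and Mrps6, were over 2-fold lower on at least 2 of the 3 arrays. These were 6 of 78, a smaller share than the 3247 of 15414 genes tested. Mrpl27 lies near the peptidyl transferase centre and Mrpl58 is a peptidyl-tRNA hydrolase that frees stalled ribosomes. The other members included 40 (51.3%) within 2-fold on all 3 arrays, against 32.7% of all genes tested.

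Mrps22 had log2 signals of 9.91 and 9.83 with obestatin, 12.05 and 9.77 with the N-terminal peptide, 11.37 and 9.98 with Nt8U, and 12.29 and 10.10 with saline. Mrps31 had 10.55 and 10.80 with obestatin, 12.94 and 10.70 with the N-terminal peptide, 12.04 and 10.84 with Nt8U, and 12.60 and 10.84 with saline. Both genes followed Mrpl47 in which samples were high. Mrps6, a homologue of bacterial S6, had 13.77 and 13.78 with obestatin, 12.52 and 14.47 with the N-terminal peptide, 13.03 and 13.78 with Nt8U, and 12.48 and 14.43 with saline, and was low where those genes were high.

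The sizes of these counts moved with the scaling, and so did the members' median on each array. Without loess within arrays, the members' median difference on the Nt8U array was 1.51 log2 units, against 0.11 with loess, and the count high on all 3 arrays was 35 in place of 11. With quantile normalization, with scaling to the 75th percentile and in the authors' log2 table that count was 2. The count of members lower on at least 2 arrays, 6 here, was 1 without loess, 12 both with signals as processed by the scanner software and with scaling to the 75th percentile, 15 with quantile normalization and 16 in the authors' log2 table. Neither count was recomputed over all genes, whose shares on single arrays moved too. On the Nt8U array 27.3% of all genes tested were over 2-fold higher in the Cy5 sample here. Without loess that share was 65.2%, and with quantile normalization 20.9%. The share over 2-fold lower was 9.1% here, 0.201% without loess and 20.9% with quantile normalization. Taken relative to the members' own median on each array, the members' pattern moved less. Over all 10 scalings, filters and probe rules Mrpl47 stayed 2.18 to 3.34 log2 units above that median on the N-terminal peptide array, 1.59 to 2.89 above on the Nt8U array and 1.93 to 3.28 above on the saline array. Mrpl14 stayed below it by the same measure, at -3.21 to -2.93 on the N-terminal peptide array, -0.54 to -0.22 on the Nt8U array and -2.19 to -2.04 on the saline array. Not every member stayed so far from it. On the Nt8U array Mrpl35 lay 0.24 to 1.17 above it and Mrps36 ran between -0.0083 and 0.97.

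**Figure D3:**
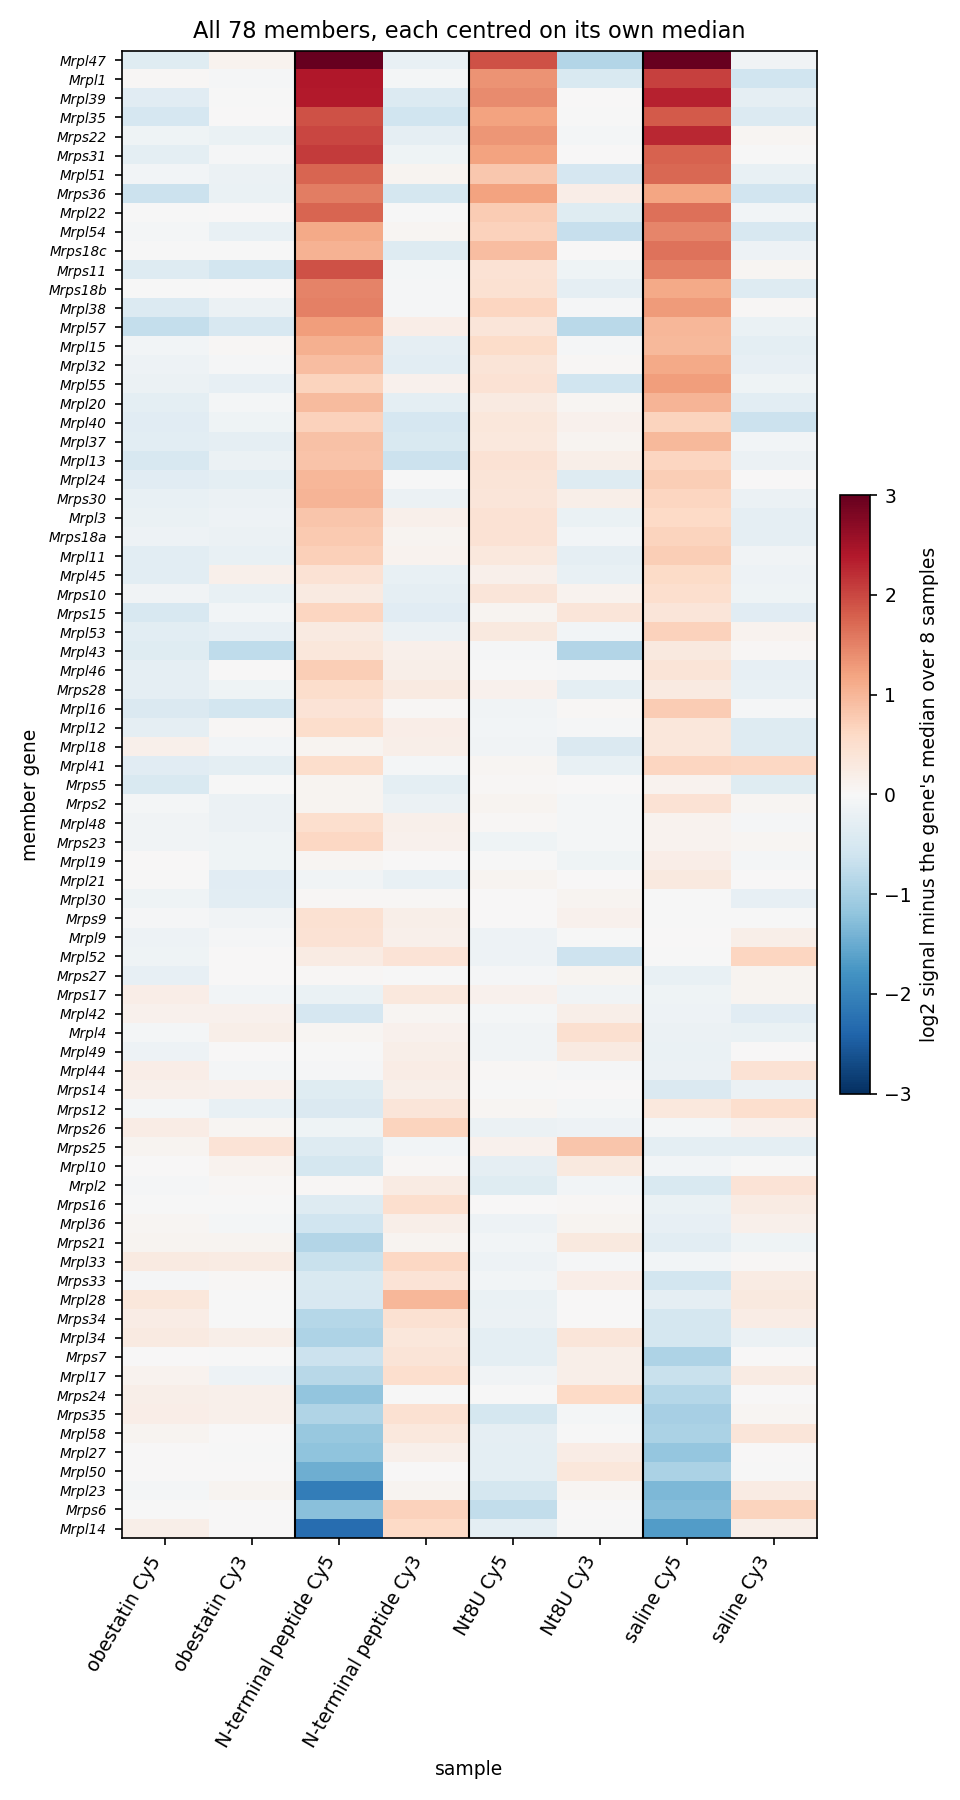
Log2 signal of each of the 78 members (rows) in each sample (columns) minus that gene's own median over the 8 samples, red for higher and blue for lower, ordered by the summed Cy5 minus Cy3 difference on the N-terminal peptide, Nt8U and saline arrays. The strong colours lie in the Cy5 columns of those 3 groups, with Mrpl47 at the top and Mrpl14 at the bottom.

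By subunit, the median Cy5 minus Cy3 difference of the 21 large subunit proteins specific to mitochondria was -0.04 log2 units on the obestatin array, 0.60 on the N-terminal peptide array, 0.29 on the Nt8U array and 0.64 on the saline array. For the 30 large subunit proteins with a bacterial homologue the medians were -0.02, 0.19, 0.01 and 0.50 on the same arrays. The 16 small subunit proteins with a bacterial homologue had medians of 0.00, -0.14, -0.01 and -0.09, and the 10 specific to mitochondria -0.01, -0.12, -0.10 and -0.09. Of the 11 members high on all 3 arrays, 4 were large subunit proteins with a bacterial homologue, 4 were large subunit proteins specific to mitochondria, 2 were small subunit proteins specific to mitochondria and 1 was Mrps36. These classes were not tested against each other. The median of all large subunit members exceeded that of all small subunit members by 0.50 log2 units on the N-terminal peptide array (0.38 to 0.95 over the 10 settings), 0.24 on the Nt8U array (0.21 to 0.25) and 0.73 on the saline array (0.61 to 0.81), and by -0.04 on the obestatin array.

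Proteins that form 1 structure did not share 1 pattern. Mrpl10, Mrpl11 and Mrpl12 form the stalk that recruits translation factors, and their Cy5 minus Cy3 differences on the saline array were -0.08, 0.83 and 0.72 log2 units. On the N-terminal peptide array they were -0.58, 0.63 and 0.32. Relative to the members' own median, Mrpl10 lay below and Mrpl11 above on both arrays under all 10 settings, whereas without loess the difference of Mrpl10 itself was 0.68 on the N-terminal peptide array and 0.32 on the saline array. Mrps18a, Mrps18b and Mrps18c, which share a name but not all a subunit, lay in 1 direction. Their differences were 0.69, 1.53 and 1.42 on the N-terminal peptide array. They were 0.53, 0.75 and 0.92 on the Nt8U array and 0.94, 1.54 and 1.77 on the saline array. All 3 stayed above the members' median under the 10 settings, while the difference of Mrps18a itself on the Nt8U array reached -0.10 in the authors' log2 table.

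Mrps12, part of the decoding centre, had log2 signals of 11.70 and 11.54 with obestatin, 11.34 and 12.13 with the N-terminal peptide, 11.83 and 11.71 with Nt8U, and 12.08 and 12.28 with saline. Mrps5, Mrps7, Mrpl2, Mrpl3 and Mrpl16, all homologues of bacterial proteins, had ranges over the 8 samples of 0.55, 1.30, 0.86, 1.11 and 1.32. Mrpl45, which anchors the ribosome to the inner membrane, Mrpl44, which resembles ribonuclease III, Mrpl42 and Mrps30 had ranges of 0.90, 0.60, 0.68 and 1.25.

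Different probes of a gene did not always move together. Of the 28 members with at least 2 probes above background, 10 had probes more than 2-fold apart in a Cy5 minus Cy3 difference and 6 had probes more than 2-fold apart in a group difference, namely Mrpl1, Mrpl35, Mrpl38, Mrpl47, Mrps17 and Mrps36. For Mrps36 the probe used gave -0.46 log2 units on the obestatin array, 2.06 on the N-terminal peptide array, 1.002 on the Nt8U array and 1.75 on the saline array. The other Mrps36 probe gave -0.29, -1.03, -0.91 and -1.06 on the same arrays, so the direction on 3 arrays depended on the probe. For Mrpl1, 1 other probe gave 2.79, 1.52 and 2.45 on the N-terminal peptide, Nt8U and saline arrays, near the probe used, and the third gave -0.87, -0.38 and -0.71.

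For Mrpl47 the second probe gave 1.57, 0.49 and 1.13 on the N-terminal peptide, Nt8U and saline arrays, the same direction as the probe used but smaller. The other probes of Mrpl35 gave 0.57 and -0.07 on the N-terminal peptide array, against 2.51 for the probe used. Those of Mrpl49 gave -1.21 and -1.27 on that array, against -0.18 for the probe used. Their log2 signals ran from 9.30 to 10.80 and from 8.95 to 10.46, so the narrow range of Mrpl49 was that of 1 probe. In Mrps6 and Mrps18c both probes gave the same direction on those 3 arrays, at -1.93, -0.93 and -1.87 for the second Mrps6 probe and 1.80, 0.95 and 1.64 for the second Mrps18c probe. The probe used was chosen by its mean signal over the same 8 samples, so brightness in any of them, in Cy5 or Cy3, favours a probe. With the mean of all probes, 8 members in place of 11 were over 2-fold higher in the Cy5 sample on all 3 arrays.

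**Figure D4:**
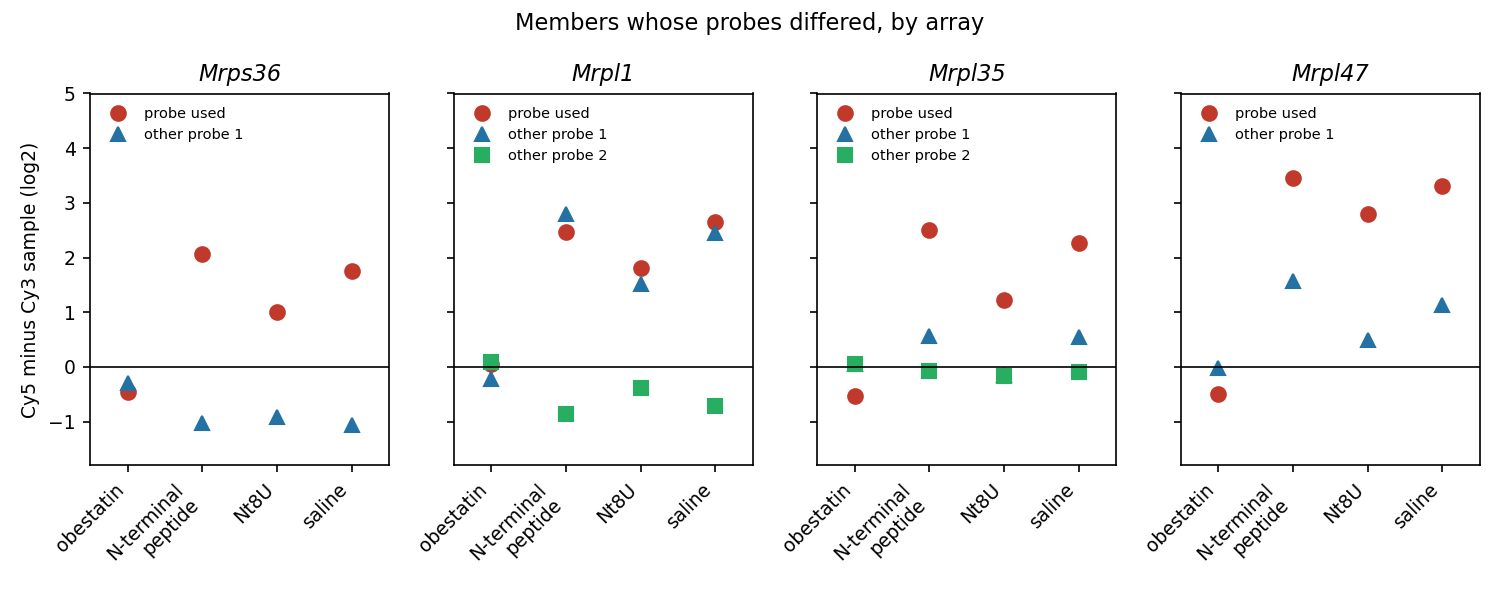
Cy5 minus Cy3 difference (log2, vertical axis) on each array (horizontal axis) for every probe above background of Mrps36, Mrpl1, Mrpl35 and Mrpl47, with a circle for the probe used and other marks for the other probes. The Mrps36 probes lie on opposite sides of 0 on 3 arrays, at 2.06 and -1.03 on the N-terminal peptide array.

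Markers of cell types also differed between the 2 samples of an array, on the obestatin array as well, where all members lay within 2-fold. The 20 testis germ cell markers had a median log2 signal of 9.92 and 11.40 in the obestatin samples, 15.07 and 8.69 in the N-terminal peptide samples, 14.06 and 8.61 in the Nt8U samples, and 15.30 and 8.40 in the saline samples. Their summed log2 signal was 205.7 and 232.9 in the obestatin samples, 284.3 and 186.5 in the N-terminal peptide samples, 266.0 and 178.8 in the Nt8U samples, and 286.5 and 183.4 in the saline samples. The defining markers Prm1, Prm2 and Tnp1 were well above background in all 8 samples, none of them at 0. Of the 20 markers, 10 were saturated in the Cy5 sample of the N-terminal peptide, 5 in that of Nt8U and 6 in that of saline. Prm1 had log2 signals of 14.66 and 16.18 with obestatin and 15.40 and 12.70 with the N-terminal peptide. With Nt8U it had 15.20 and 12.18, and with saline 15.97 and 12.68. All of Prm1, Prm2 and Tnp1 were highest in the Cy3 sample of obestatin, at 16.18, 16.53 and 16.08, though each was saturated in 3 samples. The other listed germ cell markers were each highest in the Cy5 sample of the N-terminal peptide or saline. The germ cell list as a whole was highest in the 3 Cy5 samples in which Mrpl47 was highest. The lists of Sertoli and Leydig cell markers had their highest medians in those samples too. The part of these lists in the members' differences was not tested.

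The 17 epididymis markers on the array had a median log2 signal of 10.21 and 9.66 with obestatin, 7.01 and 13.00 with the N-terminal peptide, 6.94 and 6.41 with Nt8U, and 10.08 and 16.26 with saline, and their summed signal ran between 108.0 and 256.9. Only 2 of the 17 were well above background in the Cy3 sample of Nt8U, and 7 were saturated in the Cy3 sample of saline. The 14 adipocyte markers had a median of 13.64 and 14.58 with obestatin, 8.86 and 12.68 with the N-terminal peptide, 13.87 and 15.52 with Nt8U, and 11.83 and 12.43 with saline, and their summed signal ran between 126.5 and 210.3. Of the 14 adipocyte markers, 6 were saturated in the Cy3 sample of Nt8U. Adipoq and Plin1 were well above background in all 8 samples, whereas Ucp1, the brown adipocyte marker, was so in 4 of 8. In these bulk samples fewer cells of a type and less RNA per cell cannot be told apart, and the part of these lists in the results below was not tested.

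The main comparisons asked whether the peptides changed the members, and in none of the 6 pairs of groups did a member pass the test. limma's moderated test with a dye term on all 8 samples called 0 of the 78 members and 0% of the 15414 genes at an adjusted p under 0.05 in every comparison, and the simple permutation of 2 samples against 2 cannot give a p under 0.333. At an unadjusted p under 0.05 limma gave 1 lower member for obestatin against saline, 1 higher member for the N-terminal peptide against obestatin, and 0 members in the other 4 comparisons, and the share of all genes at that p is given with each comparison below. The members' standard errors had a median of 0.37 log2 units, against 0.49 over all genes tested. The 95% interval of the difference lay within 2-fold for 15 members in obestatin against saline, 16 in the N-terminal peptide against saline and 19 in Nt8U against saline, so a change of over 2-fold was not excluded for the other members.

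Obestatin minus saline had a median difference of -0.21 log2 units over the members, against 0.00 over all genes tested, with 51 members lower and 27 higher. The members' median was -0.037 with quantile normalization and -0.017 without the Cy5 samples of the N-terminal peptide, Nt8U and saline. The samples of the 2 groups did not overlap in 21 members that were lower (26.9%, against 12.7% of all genes) and in 11 that were higher (14.1%, against 26.2%). Taken within dyes, the members' median was -0.44 between the Cy5 samples and -0.02 between the Cy3 samples. The obestatin array is also the one whose samples lay close together, as described above.

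Mrpl41, a large subunit protein specific to mitochondria, had the smallest p in that comparison, with log2 signals of 12.38 and 12.43 in the obestatin samples and 13.37 and 13.36 in the saline samples. The 4 values did not overlap, and the difference was -0.96 ± 0.31 (SE, limma, 8 samples), with an unadjusted p of 0.0303 and an adjusted p of 0.553, where 1.3% of all genes tested had an unadjusted p under 0.05 and were lower. No member was higher at that p, against 7.35% of all genes. Mrpl41 also had 13.27 and 12.67 with the N-terminal peptide and 12.78 and 12.49 with Nt8U, below both saline samples. Mrpl16, a homologue of bacterial L16, differed by -0.86 ± 0.35 and Mrpl43 by -0.73 ± 0.31, with limma adjusted p of 0.595 and 0.601. Among higher members, Mrps25, Mrps24 and Mrps14 of the small subunit differed by 0.54 ± 0.31, 0.59 ± 0.39 and 0.45 ± 0.30 (limma adjusted p = 0.651 each).

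The N-terminal peptide minus saline had a median of 0.06 log2 units over the members, against 0.02 over all genes tested. The groups did not overlap in 5 higher members (6.41%, against 4.24% of all genes) and 2 lower ones (2.56%, against 4.87%). The differences of the 78 members lay between -0.45 and 0.44. At an unadjusted p under 0.05 there was no member, against 0.104% of all genes higher and 0.655% lower. Mrps28, Mrps9 and Mrpl46 had the smallest p among higher members, at 0.37 ± 0.31, 0.33 ± 0.28 and 0.39 ± 0.36, and Mrpl41, Mrps12 and Mrpl21 among lower ones, at -0.40 ± 0.31, -0.45 ± 0.36 and -0.30 ± 0.27 (SE, limma adjusted p = 1 each). The authors' deposited tables of probes changed by the N-terminal peptide list 37 higher and 72 lower probes, of 41174 on the array. Among them were 0 of the 129 member probes, and lists this short say little about a set of that size.

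Nt8U minus saline had a median of -0.09 log2 units over the members, against -0.12 over all genes tested. The groups did not overlap in 7 higher members (8.97%, against 15% of all genes) and 7 lower ones (8.97%, against 10.6%). No member reached an unadjusted p under 0.05, against 6.92% of all genes higher and 1.19% lower. Mrps25, a small subunit protein specific to mitochondria, had log2 signals of 8.78 and 9.49 with Nt8U and 8.37 and 8.36 with saline. Both Nt8U samples lay above both saline samples, and the difference was 0.77 ± 0.31 with a limma adjusted p of 0.645. Mrps24 and Mrpl4 followed among higher members, at 0.71 ± 0.39 and 0.38 ± 0.31, and Mrpl41, Mrpl43 and Mrpl52 had the smallest p among lower ones, at -0.72 ± 0.31, -0.62 ± 0.31 and -0.70 ± 0.37.

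**Figure D5:**
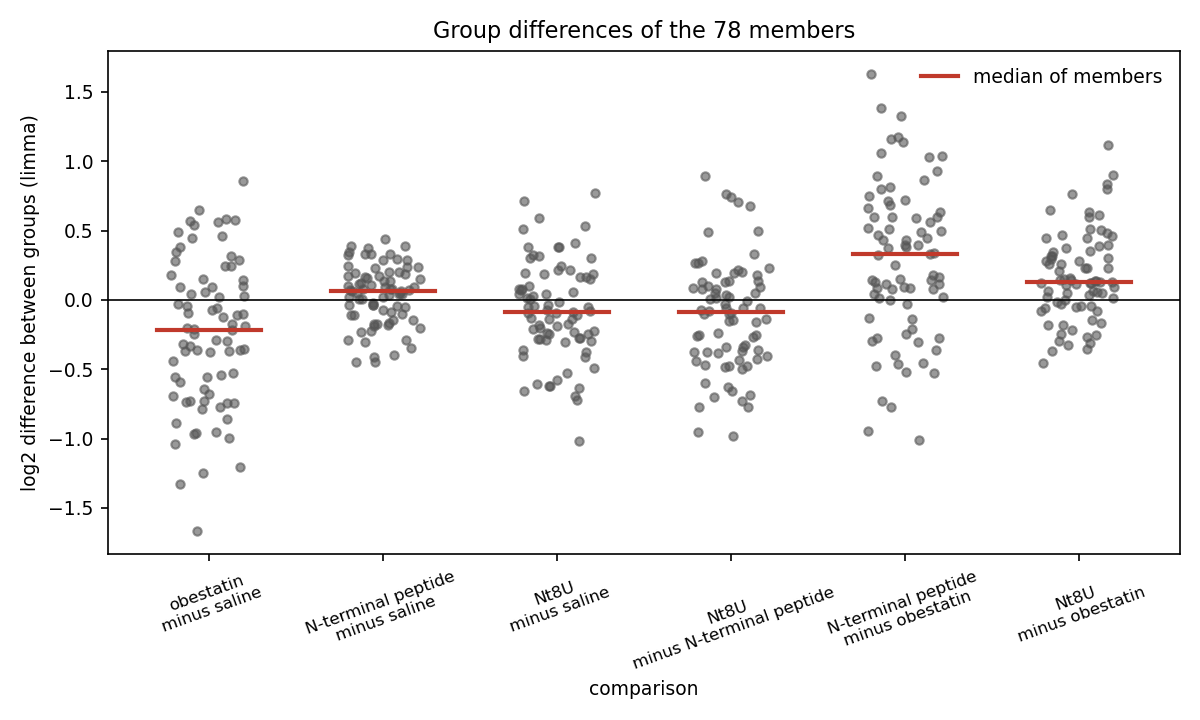
Limma log2 difference (vertical axis) of each of the 78 members in the 6 comparisons (horizontal axis), 1 point a member, with the members' median as a bar. The medians run between -0.21 for obestatin minus saline and 0.33 for the N-terminal peptide minus obestatin, and no point passed the adjusted threshold.

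Among the peptides, given at the same stated dose and time, 3 pairs were compared and 0 members passed in any of them, with p-values adjusted over all genes within each pair. For Nt8U minus the N-terminal peptide, its parent, the members' median was -0.09 log2 units, against -0.16 over all genes tested. The groups did not overlap in 14 lower members (17.9%, against 11.3% of all genes) and 3 higher ones (3.85%, against 16.5%). No member had an unadjusted p under 0.05, against 9.19% of all genes higher and 1.86% lower. Mrps24, a homologue of bacterial S3, had log2 signals of 10.92 and 11.53 with Nt8U and 9.74 and 10.92 with the N-terminal peptide, a difference of 0.90 ± 0.39 with a 95% interval from -0.12 to 1.91 and a limma adjusted p of 0.503. Mrps25 and Mrpl50 differed by 0.71 ± 0.31 and 0.75 ± 0.44, and Mrpl43, Mrpl57 and Mrpl52 by -0.69 ± 0.31, -0.96 ± 0.47 and -0.70 ± 0.37. These intervals do not show that the analog and its parent act alike.

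For the N-terminal peptide minus obestatin the members' median was 0.33 log2 units, against 0.00 over all genes tested, with 58 members higher and 20 lower. The groups did not overlap in 24 higher members (30.8%, against 14.7% of all genes) and 3 lower ones (3.85%, against 23.2%). Within dyes the members' median was 0.55 between the Cy5 samples and 0.17 between the Cy3 samples. With quantile normalization the median was 0.023, in the authors' log2 table it was 0.12, and without obestatin replicate 2 it was 0.10.

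Mrpl57, a large subunit protein specific to mitochondria, had log2 signals of 15.05 and 14.01 with the N-terminal peptide and 13.09 and 13.31 with obestatin. Both N-terminal peptide samples lay above both obestatin samples, by 1.33 ± 0.47 with a 95% interval from 0.10 to 2.56, an unadjusted p of 0.0393 and a limma adjusted p of 0.448, where 0.999% of all genes tested had an unadjusted p under 0.05 and were higher. No member was lower at that p, against 9.33% of all genes. Mrps11, a homologue of bacterial S11, and Mrpl43 followed at 1.39 ± 0.53 and 0.80 ± 0.31. Among lower members Mrps24, Mrpl23 and Mrpl50 differed by -0.77 ± 0.39, -1.01 ± 0.59 and -0.73 ± 0.44.

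For Nt8U minus obestatin the members' median was 0.13 log2 units, against 0.02 over all genes tested. The groups did not overlap in 26 higher members (33.3%, against 10.7% of all genes) and 9 lower ones (11.5%, against 22.1%). At an unadjusted p under 0.05 no member was found, against 0.26% of all genes higher and 1.04% lower. Mrps36 had the smallest p, at 1.12 ± 0.69 with a limma adjusted p of 0.994. Its second probe had 10.42 and 11.33 with Nt8U and 10.31 and 10.60 with obestatin. That probe was thus also higher with Nt8U in each dye, though its direction within the Nt8U array was the other one, as given above. Mrps10 and Mrpl16 differed by 0.40 ± 0.29 and 0.45 ± 0.35, and Mrps35, Mrpl18 and Mrpl52 by -0.46 ± 0.44, -0.31 ± 0.33 and -0.33 ± 0.37. The 6 comparisons share samples, so their values are not independent of each other.

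Members were called only without obestatin replicate 1, a fit that left 1 obestatin sample. Genes at large were called in it too, in a larger share than the members, so only differences are given. The limma difference for obestatin minus saline was then -3.51 log2 units for Mrpl47, -1.68 for Mrpl57 and -2.27 for Mrps22. For the N-terminal peptide minus obestatin it was 2.30 for Mrpl1, 2.47 for Mrpl39, 3.47 for Mrpl47 and 1.84 for Mrpl51. In the same comparison it was 2.01 for Mrpl57, 1.98 for Mrps22 and 2.13 for Mrps31. For Nt8U minus obestatin it was 2.49 for Mrpl47. In that fit the lone obestatin sample, in Cy5, is assumed to vary like the other groups. The dye term came from the other 3 arrays alone and was taken off that sample. A member with a large Cy5 excess on those arrays was thus set low in obestatin by the fit. The named members are all among the 11 that were high in the Cy5 samples of those arrays. That overlap is built into the fit and is no separate result.

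Other nuclear genes of mitochondrial gene expression gave 0 calls in the 6 comparisons over the 72 genes of 5 lists, with 1 unadjusted p under 0.05, that of the coactivator gene Ppargc1b for Nt8U against the N-terminal peptide. Within arrays, 8 of the 72 genes were over 2-fold higher in the Cy5 sample on the N-terminal peptide, Nt8U and saline arrays, 5 of them among the 19 ribosome assembly genes. These were 11.1% of the 72 and 26.3% of the 19, against 21.2% of all genes tested. Of the ribosomal proteins that carry other names, Dap3, a GTP-binding protein of the small subunit, had log2 signals of 12.64 and 12.41 with obestatin, 14.98 and 12.46 with the N-terminal peptide, 14.12 and 12.21 with Nt8U, and 14.71 and 12.15 with saline. It was high in the same 3 Cy5 samples as Mrpl47. Ptcd3 and Gadd45gip1, of the small and the large subunit, had smaller Cy5 minus Cy3 differences, at 0.84 and 0.69 on the N-terminal peptide array and 0.94 and 0.46 on the saline array. Chchd1, of the small subunit, had -0.024 and 0.27 on those arrays.

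Nsun4, a methyltransferase of mitochondrial ribosomal RNA that acts in assembly, had 8.60 and 9.37 with obestatin, 12.66 and 8.70 with the N-terminal peptide, 11.89 and 8.68 with Nt8U, and 13.04 and 9.03 with saline. It was named after its values were seen, as the assembly gene with the largest difference on those 3 arrays. Tufm, the mitochondrial elongation factor Tu, had 11.71 and 12.05 with obestatin, 12.12 and 11.92 with the N-terminal peptide, 12.10 and 12.37 with Nt8U, and 12.02 and 12.10 with saline. Tfam, which packages and transcribes mitochondrial DNA, and Lrpprc, which stabilises mitochondrial messenger RNA, had Cy5 minus Cy3 differences of -0.18 and 0.45 on the N-terminal peptide array and 0.27 and 0.56 on the saline array. Polrmt, the mitochondrial RNA polymerase, had 1.001 and 0.87 on those arrays.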

How the data were processed

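Spots were scanned by the authors with Agilent Feature Extraction 10.5.1.1, per the file headers, and the median intensity of each channel as deposited, with its median background, was used here. The authors' deposited log2 value table, made in GeneSpring GX 10 per the submitters' processing notes, has the 75th percentile of each column at 0, and its columns follow the opposite dye of the same array (r = 1), which leaves every group the same and swaps replicate identity only; its values served as an alternative. Signals were background corrected (normexp, offset 50), normalized by loess within arrays with control spots at weight 0 and by Aquantile between arrays, and each channel was treated as a sample. A probe was kept where 1 or more groups had it well above background in both of their samples. Of 41174 probes, 32664 carried 1 symbol, 45 several and 8465 none; a probe shared by 2 genes was left out. limma 3.58.1 in R 4.3.3 fitted groups and dye over 15414 genes, with 3 residual degrees of freedom and Benjamini-Hochberg adjustment over all genes within a comparison (threshold 0.05). The code was also run on simulated data with independent noise and 1 dye shift for all genes. That setting is simpler than these data, so it says nothing about the spread here.

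The members and lists were chosen with earlier results of these data known. Besides members named by role, the text names the 3 smallest p-values in each direction of a comparison, the 4 widest and 4 narrowest ranges, the extremes within arrays and members with disagreeing probes.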

Additional observations from a re-analysis of the deposited data

How the results depend on the processing

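Each median and each count of calls was recomputed under 19 alternatives, 1 of them, without the Cy5 samples of the N-terminal peptide, Nt8U and saline, chosen after seeing the data. The members' median for the N-terminal peptide minus obestatin, 0.33 log2 units, was 0.023 with quantile normalization and 0.12 in the authors' log2 table. When 1 sample was left out, it lay between 0.10 and 0.46, the calls for that comparison between 0 and 7, those for obestatin minus saline between 0 and 3 and those for Nt8U minus obestatin between 0 and 1. Calls of members came only without obestatin replicate 1, where genes at large were called in a larger share than the members. The other alternatives gave 0 calls. With 1 sample left out, the median for obestatin minus saline lay between -0.40 and -0.05 (-0.33 to -0.017 under the other alternatives), for the N-terminal peptide minus saline between -0.12 and 0.19, and for Nt8U minus saline between -0.19 and 0.04.

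Of 684 recomputed differences of named members, 4 changed sign. With 1 sample left out, Mrps35 in Nt8U minus obestatin lay between -0.96 and 0.046 (above 0 without obestatin replicate 2), and Mrpl52 in that comparison between -0.72 and 0.066 (above 0 without Nt8U replicate 1). Without the 3 Cy5 samples, Mrpl23 and Mrpl50 in the N-terminal peptide minus obestatin were 0.072 and 0.0072. The causes were not tested. The SD over members within an array stayed within 1.5 times its value in all 36 recomputations, while 21 of the 108 within-array values, all counts of members past 2-fold, moved further. The random block for the array was not run, because each array holds 1 group and each group 1 array. No paired analysis was possible because the labels number no replicates: the numbers 1 and 2 used here were given in accession order and coincide with Cy3 and Cy5, and the fit already holds dye as a term. With 2 samples a group, the number of arrays limits the precision.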
